A study of Mus musculus with 4 samples.

Results

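The genes described are the enzymes that modify and cross-link collagen and elastin: the lysyl oxidases Lox, Loxl1, Loxl2, Loxl3 and Loxl4, the lysyl hydroxylases Plod1, Plod2 and Plod3, and the prolyl 4-hydroxylase alpha subunits P4ha1 and P4ha2. They were chosen by name, 10 of the 24421 gene symbols counted, and all 10 were among the 11588 genes abundant enough to be tested. Their transcripts were measured by RNA sequencing in fibro-adipogenic progenitors (FAPs), the mesenchymal stromal cells of skeletal muscle. The study isolated these cells as a candidate niche of the resident macrophages that renew themselves in muscle, and compared FAPs that carry the surface peptidase DPPIV with FAPs that lack it. There were 2 groups of 2 libraries, DPPIV- FAPs and DPPIV+ FAPs (both sorted as PI- CD31- CD45- Sca1+), and each of 2 mice gave 1 library to each group. Both groups came from wild-type mice that had received an inhibitor of CSF1R, the receptor macrophages need to survive, for 3 weeks and then a normal diet for 3 days. Mice without the inhibitor are not part of the comparison, and while the study used adults of both sexes, the age, sex and strain of each of these mice are not given in the sources used here. The labels name the tibialis anterior as the source, while the extraction protocol describes muscle of both hindlimbs.

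Lysyl hydroxylases and prolyl 4-hydroxylases act on new procollagen chains in the endoplasmic reticulum and need iron, oxygen and ascorbate. Hydroxyproline keeps the collagen triple helix stable at body temperature, and hydroxylysine carries sugars and sets which kind of cross-link forms later. Lysyl oxidases are copper enzymes that work outside the cell, where they oxidize lysine and hydroxylysine side chains of collagen and lysines of tropoelastin so that these proteins join into insoluble fibres. In muscle, FAPs are a main source of this matrix, and its cross-linking sets the stiffness of fibrotic tissue.

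Several of these genes are known targets of hypoxia-inducible factors, which bind a core of the letters ACGTG or GCGTG. Promoters (300 bases at the start of transcription, most of them upstream, RefSeq, GRCm38.p6) were held for 5 of the 10 genes, Loxl4, Plod1, Plod3, P4ha1 and P4ha2. Those of the gene that rose most, the gene that fell most and the more abundant prolyl 4-hydroxylase subunit are printed 5′ to 3′ on the strand of the gene, with each core, read on either strand, in capitals. They lie at chr19:42612757-42613056 on the minus strand (Loxl4), chr4:147936727-147937026 on the minus strand (Plod1) and chr10:59323046-59323345 on the plus strand (P4ha1). The promoter of P4ha2, not printed, lies at chr11:54100674-54100973 on the plus strand. This is inside the gene as GENCODE M21 annotates it, from 54100095.
Loxl4: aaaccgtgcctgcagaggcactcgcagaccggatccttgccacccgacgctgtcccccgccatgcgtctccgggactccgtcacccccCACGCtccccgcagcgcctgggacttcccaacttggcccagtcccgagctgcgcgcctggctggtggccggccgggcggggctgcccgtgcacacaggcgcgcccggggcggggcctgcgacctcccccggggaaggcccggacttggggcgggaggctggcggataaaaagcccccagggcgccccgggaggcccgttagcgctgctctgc
Plod1: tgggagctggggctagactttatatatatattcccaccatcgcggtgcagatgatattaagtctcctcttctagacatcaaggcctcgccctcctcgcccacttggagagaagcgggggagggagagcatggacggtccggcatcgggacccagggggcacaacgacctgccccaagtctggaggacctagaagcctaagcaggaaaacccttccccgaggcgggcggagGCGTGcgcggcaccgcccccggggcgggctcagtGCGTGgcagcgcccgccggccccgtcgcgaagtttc
P4ha1: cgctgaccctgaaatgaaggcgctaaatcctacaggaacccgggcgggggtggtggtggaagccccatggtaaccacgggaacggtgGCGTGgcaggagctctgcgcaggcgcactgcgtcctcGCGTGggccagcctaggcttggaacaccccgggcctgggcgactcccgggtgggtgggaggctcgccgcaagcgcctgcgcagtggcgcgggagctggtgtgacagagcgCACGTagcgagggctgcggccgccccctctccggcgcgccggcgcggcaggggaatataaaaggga

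The core occurred at 1 place in the Loxl4 promoter, 2 in Plod1, 3 in P4ha1, and 4 each in Plod3 and P4ha2, so 5 of 5 held it, against 43.8% of the 32851 mouse promoters of the same length. A GC box (GGGCGG, either strand) was present in 4 of 5, all but Plod3, against 35.7% of all promoters. A CCAAT sequence (either strand) was present only in Plod3, against 37.4%, and TATAAA (either strand) in Plod1 and P4ha1, against 13.6%. These 5 genes include 1 that rose, 3 that fell and 1 that was not called in DPPIV+ FAPs, and all 5 held the core. The GC content of the 5 promoters ran from 53.3% (Plod3) to 75.0% (Loxl4). The shares over all promoters were not matched for GC content, so they do not show whether the core is more frequent here than in promoters of like GC content. A match of letters is a description and does not show that a factor binds there.

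The libraries held 18240110 to 20879405 counted reads, and every gene described had between 799 reads (Loxl4) and 25677 reads (Loxl1) in each, so counting error was small. Levels are CPM, reads scaled to a common library size after TMM normalization. The sorting gene Dpp4 had 89.6 CPM (mouse 1) and 39.6 CPM (mouse 2) in DPPIV- FAPs, against 726 and 574 CPM in the DPPIV+ libraries. The FAP markers Pdgfra, Ly6a (which encodes Sca1), Cd34, Dcn and Lum were at 960.5 CPM or more in every library. By both edgeR and DESeq2, Ly6a (log2 fold change 0.58) and Cd34 (0.52) were higher in DPPIV+ FAPs. Pdgfra (-0.38), Dcn (-0.28) and Lum (-0.85) were lower by both tests. Of the markers of other cells, 4 of 5 tenocyte genes were higher in DPPIV+ FAPs (Tnmd, Scx, Mkx and Kera, also called by DESeq2), while Thbs4, the most abundant, was lower by edgeR (log2 fold change -0.20, adjusted p = 0.026) and not by DESeq2 (adjusted p = 0.851), and the median of the 5 was 1.44. The log2 ratio of Thbs4 was -0.47 in mouse 1 and 0.08 in mouse 2, and its groups overlapped. Of 7 mural cell genes, 6 were lower by edgeR and 4 by DESeq2 (median log2 fold change -1.27). Summed over each list, the tenocyte markers ranged from 1640 to 2150 CPM in DPPIV- FAPs and from 1250 to 2390 CPM in DPPIV+ FAPs, most of it Thbs4, and the mural markers from 151 to 152 CPM and from 55.5 to 70.5 CPM. Blood cell markers summed to 173 to 293 CPM in DPPIV- and 166 to 181 CPM in DPPIV+ FAPs (3 of 5 lower by edgeR, 0 by DESeq2), and endothelial markers to 181 to 242 CPM and 457 to 501 CPM, most of it Tek (3 of 5 lower by edgeR, 0 by DESeq2, and Tek higher by both). Myofibre markers summed to 40.6 to 62.7 CPM and 45.4 to 63.7 CPM in the 2 groups, glial markers to 12.2 to 20.4 CPM with S100b lower, and satellite cell markers to 0.663 to 1.22 CPM, too low to test. The part of these cells in the differences below was not tested, and in bulk libraries more cells of a kind and more RNA per cell cannot be told apart.

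In DPPIV+ FAPs the lysyl oxidases Loxl1, Loxl2 and Loxl4 were higher, and the hydroxylases Plod1, Plod2, P4ha1 and P4ha2 and the lysyl oxidase Loxl3 were lower, by edgeR's quasi-likelihood test with mouse as a block (Benjamini-Hochberg adjusted p under 0.05 over all genes tested). No hydroxylase among the 10 genes was called higher. Lox and Plod3 were not called. Thus 3 of 10 were called higher, where 15.9% of all genes tested were, and 5 of 10 lower, where 17.2% were. Among the 2641 genes at least as abundant as Loxl4, the least abundant of these enzymes, 30.5% were called higher and 19.0% lower, so the share called higher was that of genes of this abundance. The median log2 fold change was -0.16 over the 10 genes and 0.00 over all genes tested, and the median size of the change was 0.31 against 0.16.

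**Figure D1:**
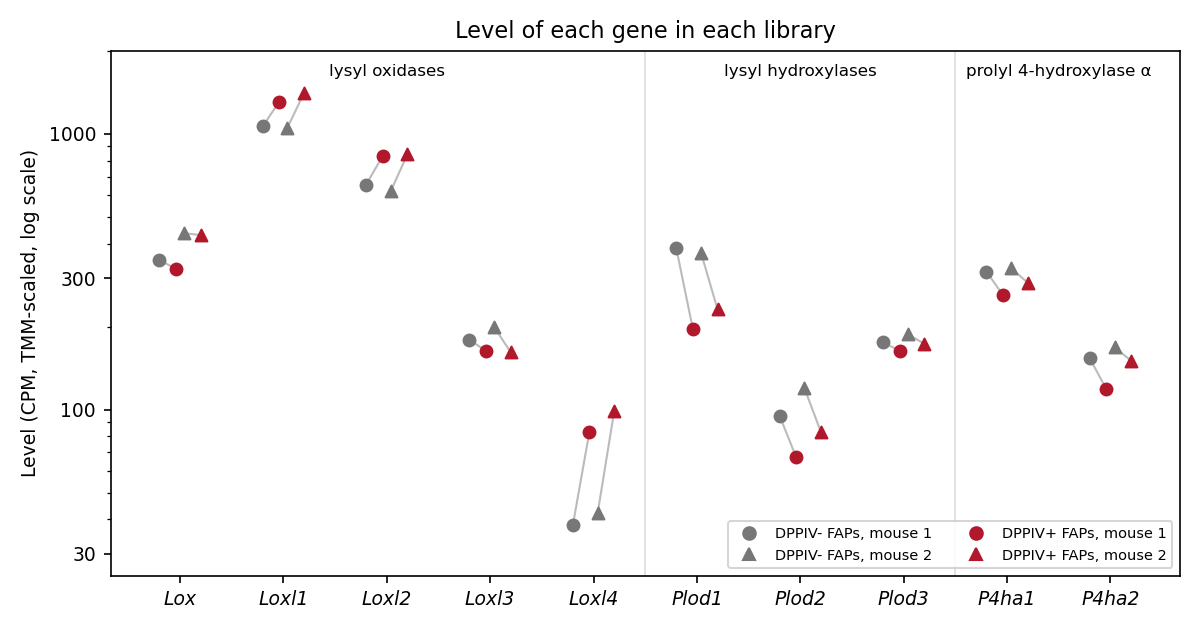
Level of each of the 10 genes (CPM, log axis) in each of the 4 libraries, with grey symbols for DPPIV- FAPs, red for DPPIV+ FAPs, circles for mouse 1, triangles for mouse 2 and a line joining the libraries of 1 mouse. The lines of Loxl1, Loxl2 and Loxl4 rise and those of the 3 Plod genes and 2 P4ha genes fall in both mice.

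Loxl4, a lysyl oxidase with scavenger receptor domains, had the largest change. Its level was 38.1 and 42.1 CPM in DPPIV- FAPs and 82.9 and 98.7 CPM in DPPIV+ FAPs (mouse 1 and mouse 2 in that order, here and below). The groups did not overlap, and the gene rose 2.26-fold with DPPIV (log2 fold change 1.17 ± 0.07, SE, n = 2 mice, edgeR adjusted p = 4.34e-62). The log2 ratio was 1.12 in mouse 1 and 1.23 in mouse 2. The SE, here and below, comes from the spread edgeR gave to genes of like abundance and does not measure the spread between the 2 mice.

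Loxl1, the lysyl oxidase needed to renew elastic fibres, had 1064 and 1052 CPM in DPPIV- FAPs and 1306 and 1406 CPM in DPPIV+ FAPs. It was 1.28-fold higher in DPPIV+ FAPs (log2 fold change 0.36 ± 0.07, SE, edgeR adjusted p = 3.87e-06). Loxl2, a relative of Loxl4 that also acts on the collagen of basement membranes, had 654 and 621 CPM in DPPIV- FAPs and 829 and 842.5 CPM in DPPIV+ FAPs. It was 1.31-fold higher (log2 fold change 0.39 ± 0.07, SE, edgeR adjusted p = 1.69e-07). For both genes the DPPIV+ libraries lay above both DPPIV- libraries, as for Loxl4, which makes 3 of 10 genes where 27.8% of all genes tested did so.

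Lox, the founding member of the family, had 349.7 and 436 CPM in DPPIV- FAPs and 323 and 429.5 CPM in DPPIV+ FAPs. Its groups overlapped and the difference was smaller than that between the mice (log2 fold change -0.07 ± 0.07, SE, edgeR adjusted p = 0.512). The sign of this value turned when 1 library was left out, to 0.11 without DPPIV- FAPs of mouse 2 and to 0.13 without DPPIV+ FAPs of mouse 1. Loxl3, which is needed for collagen of the palate and spine in development, had 179 and 199 CPM in DPPIV- FAPs and 163 and 161 CPM in DPPIV+ FAPs. Both DPPIV+ libraries lay below both DPPIV- libraries, by a log2 fold change of -0.22 ± 0.07 (SE, edgeR adjusted p = 0.00424). This call was lost in DESeq2's Wald test (adjusted p = 0.178), without the mouse block (adjusted p = 0.132) and after correcting for the length and GC content of genes (adjusted p = 0.0578).

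Plod1, the lysyl hydroxylase that acts on lysines within the triple helix, had the largest fall. It had 386 and 370.2 CPM in DPPIV- FAPs and 197 and 231 CPM in DPPIV+ FAPs. The groups did not overlap, and Plod1 was 1.77-fold lower in DPPIV+ FAPs (log2 fold change -0.83 ± 0.07, SE, edgeR adjusted p = 2.27e-32), with log2 ratios of -0.97 in mouse 1 and -0.68 in mouse 2. Plod2, which hydroxylates the telopeptide lysines at the ends of collagen chains, had 94.95 and 119.6 CPM in DPPIV- FAPs and 67.2 and 82.8 CPM in DPPIV+ FAPs. It was 1.43-fold lower (log2 fold change -0.51 ± 0.07, SE, edgeR adjusted p = 7.85e-14), by nearly the same log2 ratio in both mice, -0.50 and -0.53. Plod3, which also adds glucose to the galactose on hydroxylysine, had 175.5 and 188 CPM in DPPIV- FAPs and 163 and 173 CPM in DPPIV+ FAPs. Its DPPIV+ libraries lay below both DPPIV- libraries, but the difference was not called (log2 fold change -0.11 ± 0.07, SE, edgeR adjusted p = 0.221).

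P4ha1 and P4ha2 are catalytic subunits that pair with protein disulfide isomerase (P4hb) to form prolyl 4-hydroxylase. P4ha1 had 317 and 325 CPM in DPPIV- FAPs and 260.3 and 288.5 CPM in DPPIV+ FAPs, lower by edgeR's test (log2 fold change -0.23 ± 0.07, SE, adjusted p = 0.00315). P4ha2 had 153 and 168 CPM in DPPIV- FAPs and 119 and 150.4 CPM in DPPIV+ FAPs, also lower (log2 fold change -0.26 ± 0.07, SE, edgeR adjusted p = 0.000363). Both falls were shallow, and for P4ha2 the DPPIV+ library of mouse 2 lay just under the DPPIV- library of mouse 1. Neither was called by DESeq2 (adjusted p = 0.0914 and 0.09) or by edgeR without the mouse block (adjusted p = 0.135 and 0.218). With Loxl3 and the 3 Plod genes, 6 of 10 genes had both DPPIV+ libraries below both DPPIV- libraries, where 28.6% of all genes tested did.

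**Figure D2:**
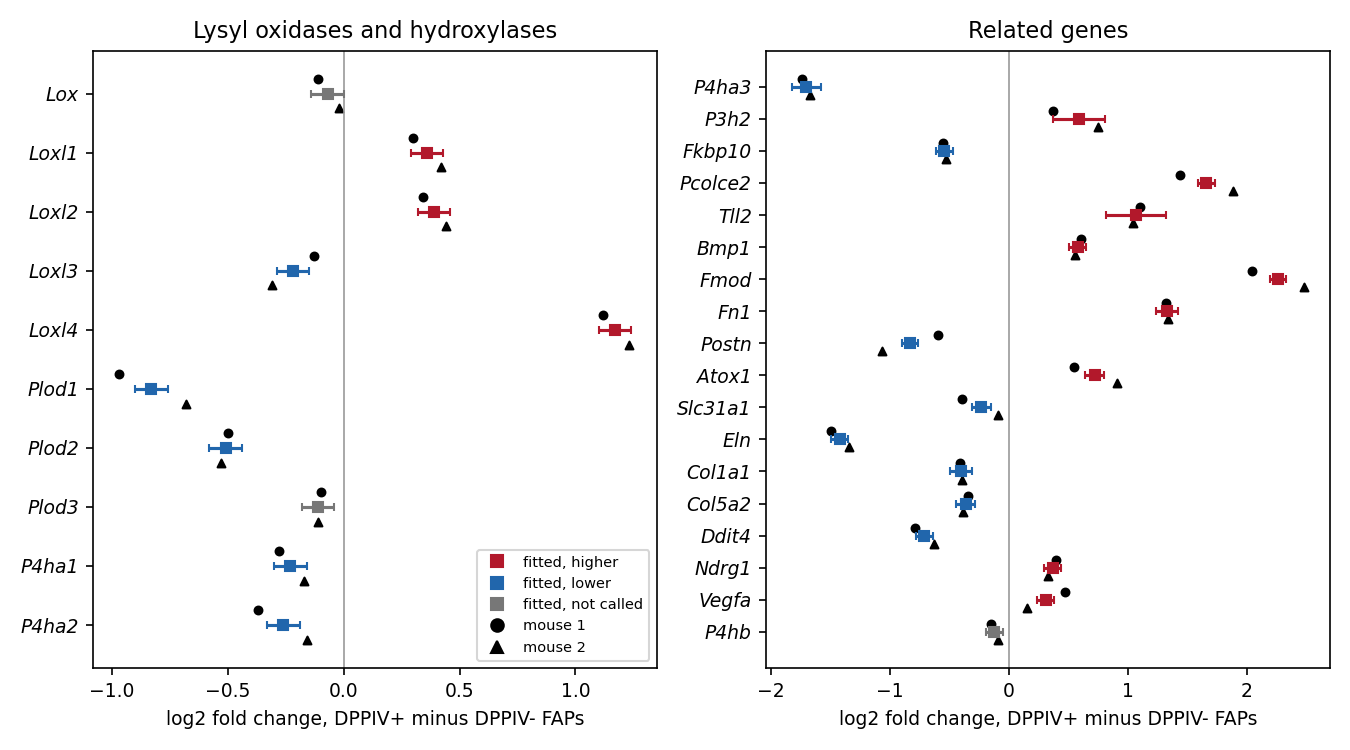
Log2 fold change, DPPIV+ minus DPPIV- FAPs, of the 10 enzymes (left) and of 18 related genes (right), with squares and bars for edgeR's estimate and its SE (red higher, blue lower, grey not called), circles for the log2 ratio in mouse 1 and triangles for mouse 2. Among the enzymes Loxl4 (1.17) and Plod1 (-0.83) stand farthest from 0, and both mice lie on the same side of 0 for all 10.

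The direction was the same in both mice for 10 of 10 genes, Lox among them with log2 ratios of -0.11 and -0.02. The share of all genes tested with the same direction in both mice was not counted, so 10 of 10 cannot be set against it. The strength of the calls differed between tests. DESeq2's Wald test kept Loxl1, Loxl2 and Loxl4 as higher (7.97% of all genes were) and Plod1 and Plod2 as lower (8.59% were). The adjusted p of DESeq2 was 0.00034 for Loxl1, 8.32e-05 for Loxl2, 5.14e-18 for Loxl4, 6.61e-14 for Plod1 and 0.000127 for Plod2. The same 5 genes were called by edgeR without the mouse block, where 8.64% of all genes were higher and 9.66% lower. Tested against a change of 1.5-fold, Loxl4 was called higher and Plod1 lower. With 1 library left out, and no mouse block, Loxl4 and Plod1 were called in all 4 fits. Loxl1 was lost without DPPIV- FAPs of mouse 2 (log2 fold change 0.35), DPPIV+ FAPs of mouse 1 (0.41) and DPPIV+ FAPs of mouse 2 (0.31). Loxl2 was lost without DPPIV+ FAPs of mouse 1 (0.40) or of mouse 2 (0.38), and Plod2 without DPPIV- FAPs of mouse 2 (-0.34) or DPPIV+ FAPs of mouse 1 (-0.37). Loxl3, P4ha1 and P4ha2 were called in none of these 4 fits, with log2 fold changes from -0.29 to -0.14, from -0.30 to -0.15 and from -0.43 to -0.09, P4ha2 being nearest 0 without DPPIV+ FAPs of mouse 1. The model with 2 mice and 2 groups leaves 1 residual degree of freedom per gene, and edgeR gave every gene the spread of its abundance trend. Thus p-values are small for abundant genes, and the SEs do not measure how far the 2 mice differed.

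**Figure D3:**
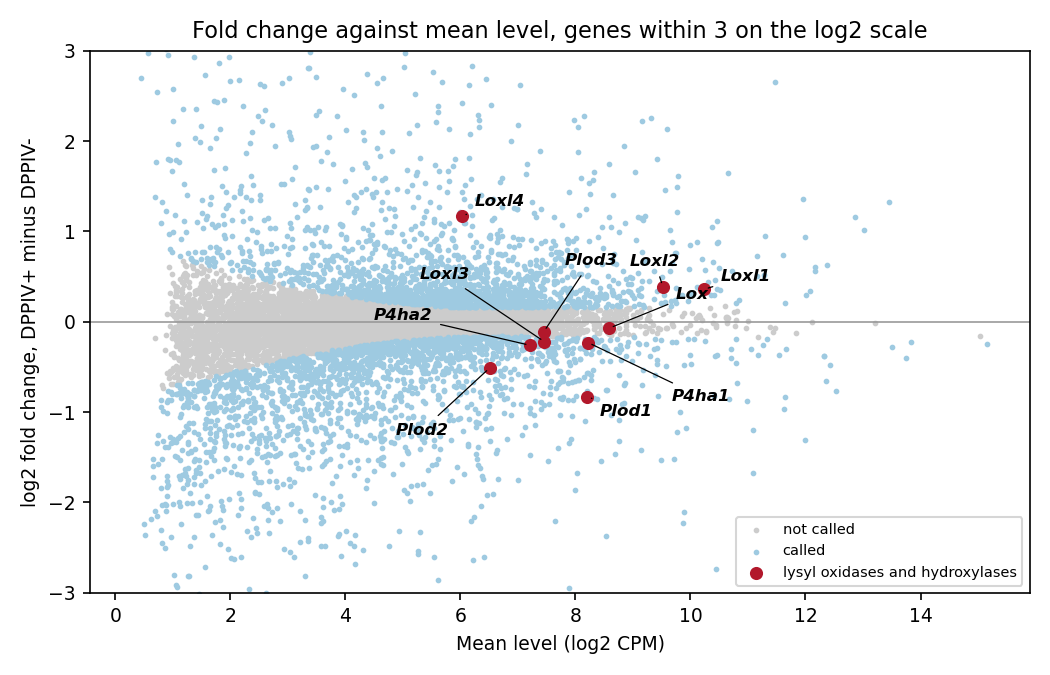
Log2 fold change, DPPIV+ minus DPPIV- FAPs, against the mean level (log2 CPM) for the genes tested, with the 10 enzymes in red, other genes called by edgeR in light blue and genes not called in grey, and 60 genes beyond 3 on the log2 scale left out of the frame. The enzymes lie in the upper range of abundance, where changes as small as those of Loxl3 and P4ha1 were called.

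Divided by the exon length of each gene (all bases in any annotated exon, 3.3 to 6.76 kb in GENCODE M21), the levels ranged 33.7-fold in DPPIV- FAPs. In CPM per kb, the order in DPPIV- FAPs was Loxl1 (321), Loxl2 (118), Lox (82.2), P4ha1 (78.0), Plod1 (55.9), Loxl3 (41.1), Plod3 (40.2), P4ha2 (25.7), Plod2 (19.9) and Loxl4 (9.52), as means of 2 mice. Neighbours whose libraries overlapped were Lox and P4ha1, and Loxl3 and Plod3. In DPPIV+ FAPs it was Loxl1 (411), Loxl2 (155), Lox (78.8), P4ha1 (66.7), Plod3 (37.2), Loxl3 (35.2), Plod1 (31.6), P4ha2 (21.6), Loxl4 (21.5) and Plod2 (13.9), and Lox overlapped P4ha1 and P4ha2 overlapped Loxl4. Per kb, Plod1 thus lay above Plod3 in both DPPIV- libraries and below it in both DPPIV+ libraries. In CPM not divided by length, Plod1 stayed above Plod3 in DPPIV+ FAPs (196.7 and 230.8 against 163.3 and 173.3 CPM). Loxl4 lay below Plod2 in DPPIV- FAPs and above it in DPPIV+ FAPs.

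The lysyl oxidases summed to 565 and 578 CPM per kb in DPPIV- FAPs and to 672 and 731 CPM per kb in DPPIV+ FAPs, log2 ratios of 0.25 and 0.34 in mouse 1 and mouse 2. Loxl1 was the main transcript of the class in both groups, with 56.1% ± 1.39 (SD, n = 2) of it in DPPIV- FAPs and 58.6% ± 0.398 in DPPIV+ FAPs. The share of Lox was 14.4% ± 1.99 and 11.2% ± 1.58, that of Loxl3 7.18% ± 0.421 and 5.03% ± 0.344, and that of Loxl4 1.67% ± 0.0909 and 3.07% ± 0.198. Thus the gene with the largest fold change supplied little of the class. The lysyl hydroxylases summed to 113 and 118 CPM per kb in DPPIV- FAPs and 77.7 and 87.8 in DPPIV+ FAPs, log2 ratios of -0.55 and -0.43. Plod1 made up 48.2% ± 2.86 of this class in DPPIV- FAPs and 38.1% ± 0.99 in DPPIV+ FAPs, and Plod3 34.6% ± 0.586 and 45.1% ± 2.02, so Plod3 was the larger share in DPPIV+ FAPs per exon length. On reads not divided by length Plod1 stayed the larger share there, 46.7% against 36.9%. P4ha1 and P4ha2 kept a near constant ratio, with P4ha1 at 75.2% ± 0.855 of their sum in DPPIV- FAPs and 75.6% ± 1.74 in DPPIV+ FAPs. No test was run on these shares.

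**Figure D4:**
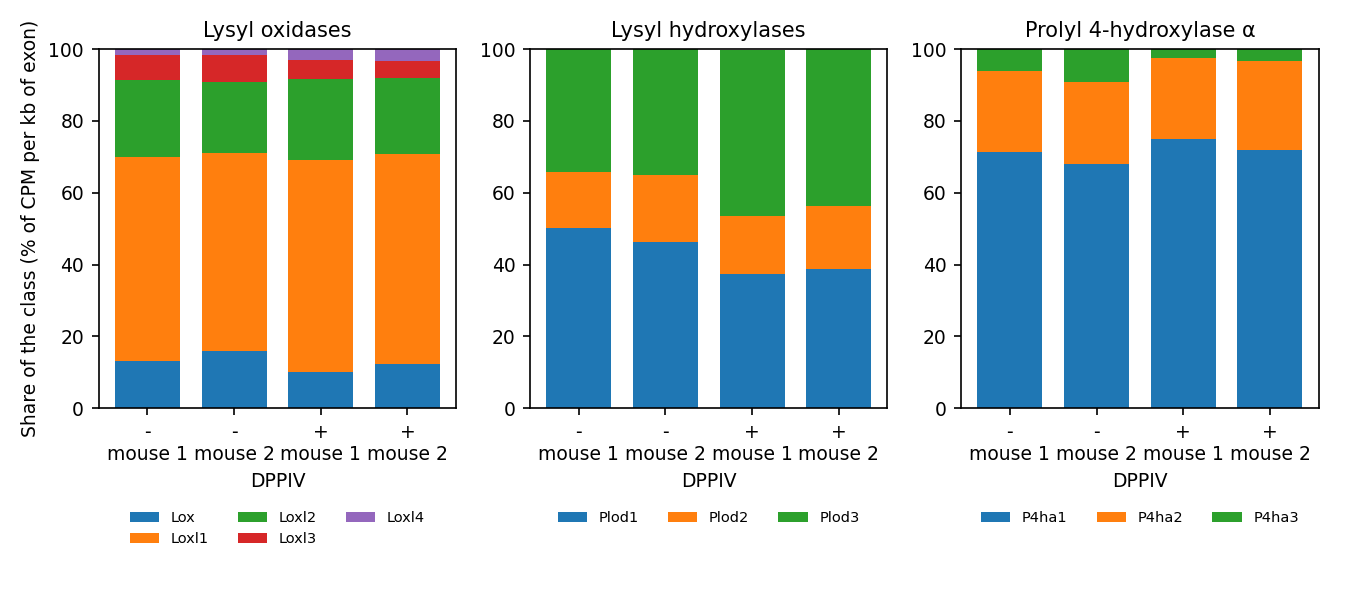
Share of each gene in the summed CPM per kb of exon of its enzyme class (%, stacked bars from 0 to 100) in each of the 4 libraries, with P4ha3 added to the prolyl 4-hydroxylase subunits. Loxl1 takes over 55% of the lysyl oxidases in every library, and Plod3 overtakes Plod1 in both DPPIV+ libraries on this per kb scale, though not in CPM.

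The same fit gave the difference between the mice, which the groups share. Lox was higher in mouse 2 by a log2 fold change of 0.36 ± 0.07 (SE, edgeR adjusted p = 5.83e-06, DESeq2 adjusted p = 0.0117), larger than its difference between DPPIV+ and DPPIV- FAPs. Plod2 (0.32, edgeR adjusted p = 6.44e-05), P4ha2 (0.23, adjusted p = 0.00757) and Loxl4 (0.20, adjusted p = 0.0366) were also higher in mouse 2 by edgeR and were not called by DESeq2 (adjusted p = 0.287, 0.69 and 1.0). Thus 4 of 10 genes were higher in mouse 2, where 4.47% of all genes tested were, and the other 6 were not called, where 4.51% of all genes were lower. For this difference the share among genes of like abundance was not counted. Beside the 4 genes, 5 of 5 tenocyte and 4 of the 4 myofibre markers tested were higher in mouse 2 by edgeR, and 5 of 5 endothelial and 3 of 5 blood cell markers were lower. Of these markers, DESeq2 called Kera. The part of these cells in the difference was not tested.

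Of 52 related genes in 6 lists, 49 were tested, and 12 were higher and 18 lower in DPPIV+ FAPs by edgeR (7 and 11 by DESeq2, 7 and 9 without the mouse block), with a median log2 fold change of -0.11 against 0.00 over all genes. Over all genes tested, 15.9% were higher and 17.2% lower by edgeR, and 7.97% and 8.59% by DESeq2. Among genes at least as abundant as Loxl4, edgeR called 30.5% higher and 19.0% lower. The counts of each list below are to be read beside these shares. The lists were drawn up with results of these data known. Among 15 genes of collagen folding and modification in the endoplasmic reticulum, 1 was higher and 8 were lower (0 and 4 by DESeq2), with a median of -0.19. P4ha3, the third catalytic subunit of prolyl 4-hydroxylase, fell from 20.4 and 33.0 CPM in DPPIV- FAPs to 6.1 and 10.3 CPM in the DPPIV+ libraries (log2 fold change -1.70 ± 0.12, SE, edgeR adjusted p = 1.78e-41). It supplied 7.52% of the 3 subunits per exon length in DPPIV- FAPs and 2.85% in DPPIV+ FAPs. Fkbp10, a chaperone that works with Plod2 on telopeptide lysines, fell like Plod2, by 0.54 on the log2 scale, from 235 and 256.5 CPM to 159.8 and 178 CPM (edgeR adjusted p = 1.05e-14). P4hb, the partner of P4ha1 and P4ha2, was not called (1151 and 1155 CPM against 1037 and 1085 CPM, log2 fold change -0.12, edgeR adjusted p = 0.2). P3h2, a prolyl 3-hydroxylase, was the gene called higher, at 2.96 and 4.8 CPM against 3.82 and 8.05 CPM (log2 fold change 0.59, edgeR adjusted p = 0.0224), and DESeq2 did not call it (adjusted p = 0.449). Its sign turned to -0.01 without DPPIV+ FAPs of mouse 2.

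The substrates themselves were lower or not called. Of 6 fibrillar collagen and elastin genes, 4 were lower (4 by DESeq2), and the other 2 were not called, Col3a1 (log2 fold change -0.16) and Col5a1 (-0.13). Their median was -0.29, and their sum went from 73500 and 75900 CPM in DPPIV- FAPs to 62300 and 64500 CPM in DPPIV+ FAPs. Eln, which encodes tropoelastin, fell most, from 736 and 910.4 CPM to 261 and 359 CPM (log2 fold change -1.42 ± 0.07, SE, edgeR adjusted p = 9.09e-87). Col1a1 fell by 0.40 on the log2 scale, from 14760 and 16450 CPM to 11140 and 12530 CPM (edgeR adjusted p = 2.39e-05), and Col5a2 fell by 0.36 (edgeR adjusted p = 1.08e-05). These falls stood beside the falls of Plod1 and Plod2 and the rises of Loxl1 and Loxl2 in the same libraries. Mural cells also express Eln, and their markers were lower in DPPIV+ FAPs, as given above. The part of mural cells in the fall of Eln was not tested.

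Of 8 procollagen proteases and enhancers, 4 were higher and 1 lower (3 and 0 by DESeq2), with a median of 0.21. Bmp1, which cleaves procollagen and also activates the precursor of Lox, rose from 824 and 785 CPM to 1257 and 1156 CPM (log2 fold change 0.58 ± 0.07, SE, edgeR adjusted p = 2.6e-15). Pcolce2, an enhancer of procollagen C-proteinase, rose from 185 and 129 CPM to 502 and 474.5 CPM (log2 fold change 1.66, edgeR adjusted p = 5.19e-120). Tll2, a relative of Bmp1, was low in all libraries and rose from 1.86 and 2.55 CPM to 3.99 and 5.26 CPM by edgeR (log2 fold change 1.07 ± 0.25, SE, adjusted p = 8.11e-05), without a call by DESeq2 (adjusted p = 0.0861).

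Of 6 matrix proteins that bind lysyl oxidases or their substrates, 3 were higher and 2 lower (2 and 1 by DESeq2), with a median of 0.14. Fmod, the proteoglycan fibromodulin that binds collagen and Lox, rose from 167 and 259 CPM to 687 and 1442 CPM (log2 fold change 2.26 ± 0.07, SE, edgeR adjusted p = 2.8e-199). Fibromodulin is also abundant in tendon, whose markers Tnmd, Scx, Mkx and Kera were higher in the same libraries and highest in DPPIV+ FAPs of mouse 2. The tendon marker Thbs4 was also highest in that library (2213 CPM) but lower by edgeR (log2 fold change -0.20). It was lower in mouse 1 (log2 ratio -0.47) and not in mouse 2 (0.08). The part of tenocytes in the rise of Fmod was not tested. Fn1, fibronectin, rose from 6470 and 6271 CPM to 16150 and 15820 CPM (log2 fold change 1.33, edgeR adjusted p = 2.24e-51). Postn, periostin, which brings Bmp1 to fibronectin, fell from 1286 and 2222 CPM to 855 and 1064 CPM (log2 fold change -0.83, edgeR adjusted p = 1.66e-28).

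Of 5 genes of copper and ascorbate supply, 4 were tested, with 1 higher and 1 lower (1 and 0 by DESeq2) and a median of 0.02. Atox1, the copper chaperone that hands copper to the secretory pathway, rose from 36.0 and 28.5 CPM to 52.5 and 53.4 CPM (log2 fold change 0.72 ± 0.08, SE, edgeR adjusted p = 6.68e-19). Slc31a1, the copper importer, had 42.6 and 43.8 CPM against 32.6 and 41.2 CPM and was lower by edgeR (log2 fold change -0.23, adjusted p = 0.0129) but not by DESeq2 (adjusted p = 0.462). Of 12 hypoxia-induced genes, 10 were tested, and 3 were higher and 2 lower (1 and 2 by DESeq2), with a median of 0.01, so the list had no common direction. Ddit4 fell from 66.7 and 79.7 CPM to 38.7 and 51.5 CPM (log2 fold change -0.71, edgeR adjusted p = 8.72e-23). Ndrg1 rose from 131 and 134 CPM to 173 and 168.5 CPM (0.37, edgeR adjusted p = 2.61e-07), and Vegfa rose from 97 and 142 CPM to 134 and 158 CPM by edgeR (0.31, adjusted p = 2.11e-05) with a DESeq2 adjusted p of 0.0507. The groups overlapped for Vegfa, and its difference between the mice was larger (0.40, higher in mouse 2). Without the mouse block edgeR did not call Vegfa (adjusted p = 0.34).

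**Figure D5:**
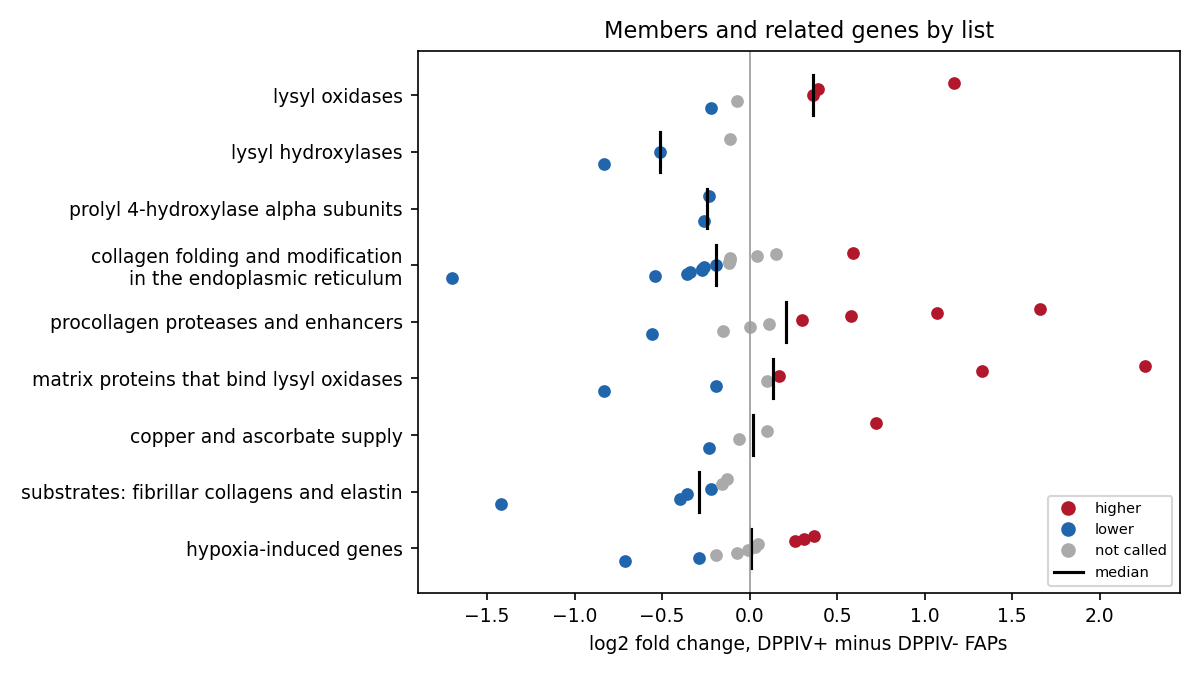
Log2 fold change, DPPIV+ minus DPPIV- FAPs, of every tested gene of the 3 enzyme classes and the 6 related lists, 1 point per gene (red higher, blue lower, grey not called by edgeR), with a black bar at the median of each list. The medians run from -0.51 for the lysyl hydroxylases to 0.36 for the lysyl oxidases.

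In GRCm38 (GENCODE M21) the 3 enzymes that rose lie on chromosome 9 from 58287738 to 58313186 (Loxl1, minus strand), chromosome 14 from 69609068 to 69695834 (Loxl2, plus strand) and chromosome 19 from 42593982 to 42612813 (Loxl4, minus strand). Plod1 lies on chromosome 4 from 147909753 to 147936767 (minus strand), Plod2 on chromosome 9 from 92542223 to 92608428 (plus strand), P4ha1 on chromosome 10 from 59323296 to 59373304 and P4ha2 on chromosome 11 from 54100095 to 54131665 (both plus strand). Loxl3 is on chromosome 6 from 83034173 to 83052562 and Plod3 on chromosome 5 from 136987019 to 136996648 (both plus strand). Exons of Loxl3 share 535 bases with exons of Htra2 on the opposite strand, and exons of Plod3 share 529 bases with Znhit1 on the opposite strand. Whether the counting used strand is not stated, so reads of these pairs may not be told apart. Htra2 was called higher by edgeR (log2 fold change 0.20, adjusted p = 0.0347), opposite to Loxl3, and Znhit1 was not called (log2 fold change -0.13, adjusted p = 0.383). A stretch of 2348 bases of Loxl2 transcripts is identical to a transcript of Gm21451, a symbol not in the count table. How reads from this stretch were counted is not stated, so the level of Loxl2, its rank and its share of the class may be affected.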

How the data were processed

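Per the labels and the study's methods, the authors demultiplexed paired-end reads (bcl2fastq 2.20), aligned them to mm10 with STAR, counted them per gene with RnaReadCounter and deposited raw counts of 24421 symbols, not normalized. The submitters' processing notes also name Bowtie, with no role given. The labels name a NEBNext stranded kit and the study's methods a TruSeq one; annotation release and use of strand are not given in the sources used here. Here, a gene was tested when 2 or more libraries reached 2 CPM. The groups were compared with edgeR 4.0.16 (R 4.3.3; TMM, quasi-likelihood F test without robust moderation, mouse plus cell type, two-sided, Benjamini-Hochberg adjustment over all genes kept, threshold 0.05), after a test on simulated data. SEs are the log2 fold change over the square root of F, and so rest on the spread of the abundance trend and not on that between the 2 mice. DESeq2 1.42.0 and other settings were alternatives. Mouse numbers in the titles pair the libraries, and over genes, which are no replicates, the mouse differences in the 2 groups correlated (0.434). A count of 3 reads, the limit a count of 0 allows, is 0.143 to 0.166 CPM. Exon length and GC content (96.7% of genes kept) came from GENCODE M21, promoters from RefSeq, and similar transcripts from BLAST 2.17.0 (at least 97% identity over 200 bases). Of the related genes, those named were, per list, up to 3 called with the largest change in 1 direction in both mice, and P4hb. The genes, lists and tests were chosen with earlier results of these data known.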

Additional observations from a re-analysis of the deposited data

How the results depend on the processing

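Of the enzymes, 3 were called higher and 5 lower by edgeR with the mouse block. DESeq2 and the fit without the replicate block each called 2 lower, and the test against a 1.5-fold change called 1 higher and 1 lower. With 1 library left out (no block, the lone library of a group taken to vary like the other group) 1 to 3 were higher and 1 to 2 lower. For the related genes, 12 higher and 18 lower became 7 and 11 by DESeq2, 7 and 9 without the replicate block, 3 and 3 against 1.5-fold, and 5 to 8 and 2 to 11 with 1 library left out. Over all genes, 1837 higher and 1989 lower became 923 and 995, 1001 and 1119, 436 and 656, and 632 to 1049 and 732 to 1121. Without DPPIV- FAPs of mouse 1, DPPIV- FAPs of mouse 2, DPPIV+ FAPs of mouse 1 and DPPIV+ FAPs of mouse 2, in turn, the related genes called lower numbered 11, 6, 2 and 6. Of the 4 enzymes higher in mouse 2, DESeq2 called 1. The fit without the block has more residual degrees of freedom and adds the mouse difference to the spread, and fits without a library have fewer samples; for DESeq2 the cause was not tested. The log2 fold change of Lox ran from -0.28 to 0.13 and that of P3h2 from -0.01 to 1.06 over the fits with 1 library or 1 mouse left out. With 1 mouse left out there is a value and no test. Of the enzymes' log2 fold changes under the alternatives with a test, 102 kept direction and side of the threshold, 26 kept direction and lost the call and 2 turned. Of those of the named related genes, the numbers were 201, 32 and 1. These tallies leave out the test against a 1.5-fold change, which kept the calls of Loxl4 and Plod1 alone. They also leave out the threshold of 0.01, which kept 3 enzymes higher and 5 lower. RLE, upper-quartile and unscaled library sizes, no filter, a stricter filter and robust moderation kept all 8 calls of the enzymes, and the GC and length correction with the replicate block lost Loxl3. Shares on reads not divided by length, in DPPIV- and DPPIV+ FAPs, were 16.9% and 13.3% for Lox, 45.7% and 48.1% for Loxl1, 27.5% and 29.7% for Loxl2, 8.15% and 5.76% for Loxl3, 56.7% and 46.7% for Plod1, 27.2% and 36.9% for Plod3, 66.7% and 67.2% for P4ha1, and 33.3% and 32.8% for P4ha2, and those of Plod2 and Loxl4 moved by less than 1 SD. With 2 mice, small differences such as that of Plod3 cannot be settled.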
